A study of Mus musculus with 2 samples.

Results

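Transcripts of the enzymes of glycolysis, the tricarboxylic acid (TCA) cycle and the pentose phosphate pathway were read in regulatory T cells (Treg) of 2 Stat3 genotypes. The list held 39 genes, and a gene was represented by those probe sets (groups of short oligonucleotides that read a transcript) which the platform annotation pairs with that gene alone, without the array's control probe sets. By this rule 35 of the 39 genes had a probe set, out of 18193 genes in all. For each gene the brightest such probe set, by its mean over the arrays, was used, and 34 genes were measured, which here means that either array read log2 5 or more. Gpi1, Eno1 and G6pdx matched no such probe set, and Gapdh had control or shared probe sets only. The kinase gene Pdk2 lay under log2 5 in both arrays, reading 2.49 and 2.51, a range in which GCRMA values carry no order.

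Treg are CD4 T cells that depend on the transcription factor Foxp3 and restrain immune responses. Flow cytometry was used to sort them out of spleen and lymph nodes; the donors were females, 6 to 8 weeks old. The genotype of the control array is given as Foxp3<Cre/wtS> Stat3<fl/wt> and that of the other array as Foxp3<Cre/wtS> Stat3<fl/fl>; the series' design text writes the Foxp3 genotype of the second as Foxp3 <Cre/wt>. Both genotypes thus carry Cre recombinase at a Foxp3 allele and at least 1 loxP-flanked (floxed) Stat3 allele, and fl/fl has both Stat3 alleles floxed, so that Cre can remove the floxed part from 1 copy or from both. Stat3 is the transcription factor that carries signals of cytokines such as IL-6 and IL-10 to the nucleus. Foxp3 is X-linked, so a female with 1 Cre allele expresses Cre only in the Treg whose active X carries it. Whether the sort picked these cells, and how many mice were used per sample, is not stated in the labels. There was 1 array per genotype, so no difference below has a replicate error or a test, and whether a genotype's values would overlap with the other's on repetition cannot be told.

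Glycolysis splits glucose into pyruvate in the cytosol, and lactate dehydrogenase can turn pyruvate into lactate to restore NAD+. The pyruvate dehydrogenase complex instead passes pyruvate as acetyl-CoA to the TCA cycle in mitochondria, and the pentose phosphate pathway branches from glucose 6-phosphate to make NADPH and ribose. Activated effector T cells raise glycolysis through mTOR, Myc and Hif1a, whereas Treg are known to rely more on mitochondrial oxidation. Stat3 has been linked to glycolytic gene expression in several cell types, so the comparison asks whether these transcripts differ when both Stat3 alleles are floxed.

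The promoters are shown first, because Stat3, Myc and Hif1a are known to bind short motifs that can be looked for there. Windows from 250 bases before to 50 bases after each transcription start were taken from RefSeq (GRCm38.p6), and 38 of the 39 genes matched by symbol; Idh3a did not. Searches covered both strands for TTCNNNGAA (a STAT site), CACGTG (the E box that Myc and Max can bind) and ACGTG (the core of the hypoxia response element, which also lies within the E box). Core ACGTG was held by 18 of the 38 genes (47.4%) in at least 1 of their windows, against 21.8% of the 27025 genes in the table. Some genes have several windows; counted per window, the shares were 44.8% of 58 against 19.6% of all 32851. CACGTG occurred in 5 of the 38 genes (13.2%, against 8.09% of all genes), namely Pfkm, Ldha, Pfkfb3, Pdk2 and Ogdh. TTCNNNGAA occurred in 2 of the 38 (5.26%, against 9.55%), Pfkm and Aldoc. These are matches of letters and do not show binding.

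The windows of Ldha (chr7:46845554-46845853, plus strand) and Pgk1 (chrX:106186850-106187149, plus strand) are printed as examples with the hypoxia core, and those of Pfkm (chr15:98108221-98108520, plus strand) and Aldoc (chr11:78323948-78324247, plus strand) because they hold the only STAT matches of the list. The Ldha window has 2 E boxes, and with both strands counted 5 matches to ACGTG, of which the E boxes give 4. Capitals mark every match to any of the 3 motifs on either strand.
Ldha: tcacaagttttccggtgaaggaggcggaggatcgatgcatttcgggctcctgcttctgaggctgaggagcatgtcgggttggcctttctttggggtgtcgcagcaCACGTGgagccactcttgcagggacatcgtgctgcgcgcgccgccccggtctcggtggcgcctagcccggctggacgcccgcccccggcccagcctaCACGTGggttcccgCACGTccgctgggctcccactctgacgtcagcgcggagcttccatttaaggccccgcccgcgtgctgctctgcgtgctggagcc
Pgk1: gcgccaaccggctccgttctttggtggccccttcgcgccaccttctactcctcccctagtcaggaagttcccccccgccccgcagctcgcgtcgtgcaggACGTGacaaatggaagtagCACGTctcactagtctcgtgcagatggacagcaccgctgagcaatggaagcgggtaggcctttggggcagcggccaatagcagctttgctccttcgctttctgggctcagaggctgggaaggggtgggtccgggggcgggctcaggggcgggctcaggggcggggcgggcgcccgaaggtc
Pfkm: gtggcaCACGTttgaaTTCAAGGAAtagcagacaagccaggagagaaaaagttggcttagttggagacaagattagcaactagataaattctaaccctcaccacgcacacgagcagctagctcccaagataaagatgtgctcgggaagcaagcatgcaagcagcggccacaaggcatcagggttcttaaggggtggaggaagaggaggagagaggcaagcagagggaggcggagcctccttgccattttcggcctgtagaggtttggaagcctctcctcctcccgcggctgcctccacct
Aldoc: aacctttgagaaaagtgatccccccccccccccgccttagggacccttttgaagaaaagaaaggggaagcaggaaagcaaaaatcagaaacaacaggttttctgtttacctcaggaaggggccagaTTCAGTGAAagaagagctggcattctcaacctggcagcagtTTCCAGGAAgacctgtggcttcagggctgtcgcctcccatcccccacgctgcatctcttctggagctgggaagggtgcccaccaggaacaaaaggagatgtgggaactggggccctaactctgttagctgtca

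Genes with and without these letters are set side by side by how they differed between the arrays. Of 15 measured genes with ACGTG, 4 differed by at least 0.1 on the log2 scale and their median difference (fl/fl minus fl/wt, as throughout) was 0.018. Without ACGTG there were 18 measured genes, of which 2 differed by that much, with a median of -0.010. Among all measured genes 26.8% differed by at least 0.1, so the 4 of 15 genes with the letters lie at that share. The STAT-matched genes Pfkm and Aldoc differed by 0.13 and 0.022. With so few genes and no replicate these values are a description.

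The 2 arrays read the whole set at nearly the same level. Of the 34 measured genes, 19 read higher and 15 lower in fl/fl, against 47.5% higher and 52.5% lower among all 9773 measured genes. The median difference was 0.0058, against -0.0045 over all measured genes, and single genes ran from -0.26 (Pfkfb4) to 0.13 (Pfkm). At least 0.1 apart on the log2 scale were 6 of the 34 genes, where the share among all measured genes was 26.8%. At least 0.25 apart was Pfkfb4 alone (background 5.79%). None of the 34 was 1.5-fold apart (background 0.645%) and none was 2-fold apart (background 0.0512%).

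**Figure D1:**
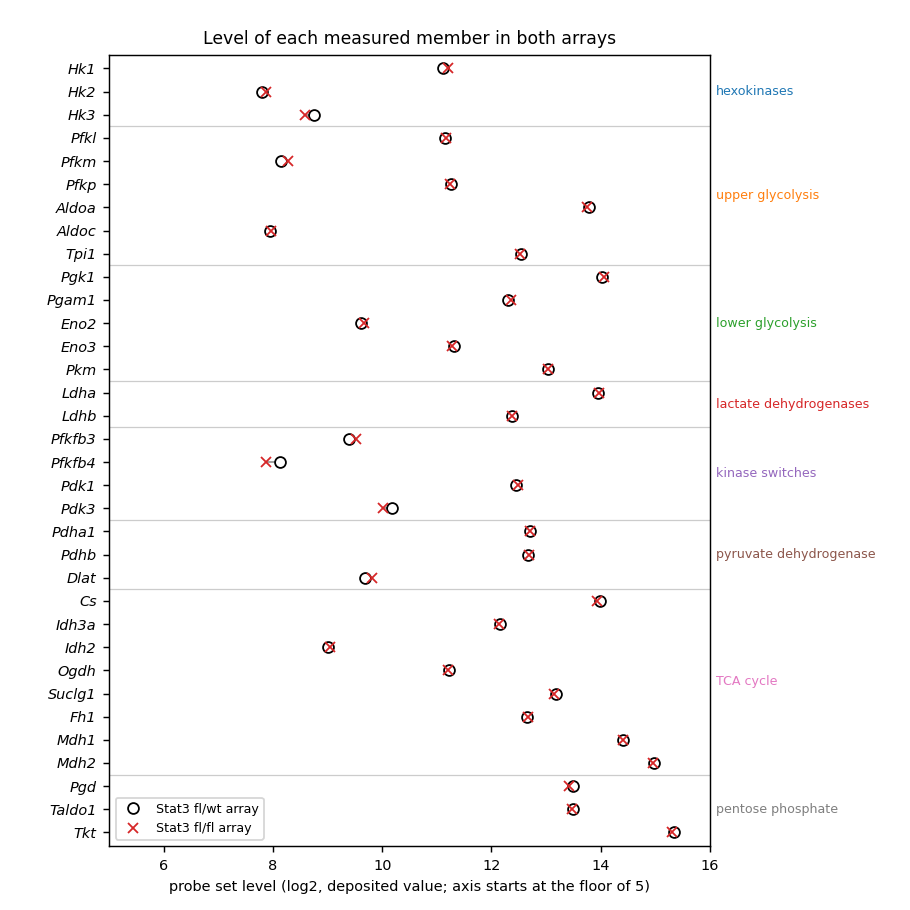
Deposited log2 level of each of the 34 measured genes in the Stat3 fl/wt array (open circle) and the Stat3 fl/fl array (red cross), 1 array each, grouped by pathway step. In most rows circle and cross coincide; Pfkfb4, Pdk3 and Hk3 have the cross to the left and Pfkm, Pfkfb3 and Dlat to the right. Probe sets differ in brightness for equal RNA, so rows are not to be ranked against each other.

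How far a gene differed went with how bright its probe set was, as for genes in general. None of the 24 genes with a mean level of 11 or more was at least 0.1 apart, where 7.52% of all genes of that level were. Between 9 and 11 it was 3 of 5 (Pdk3, Pfkfb3 and Dlat; 24.3% of all genes of that level), and between 7 and 9 it was 3 of 5 (Pfkfb4, Hk3 and Pfkm; 48.7%). No gene of the set had a mean under 7, and levels ran from 7.81 to 15.34. In size, the median difference of the 24 bright genes was 0.023, against 0.032 for all genes of that level. For the dimmer genes of the set it was larger than for all genes of their level, 0.13 against 0.057 between 9 and 11 (5 genes) and 0.13 against 0.096 between 7 and 9 (5 genes). Among these dimmer genes, Dlat and Hk3 each had another probe set of opposite sign. As the median over probe sets they differed by 0.024 and -0.038, so the larger size depends on which probe sets are read.

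**Figure D2:**
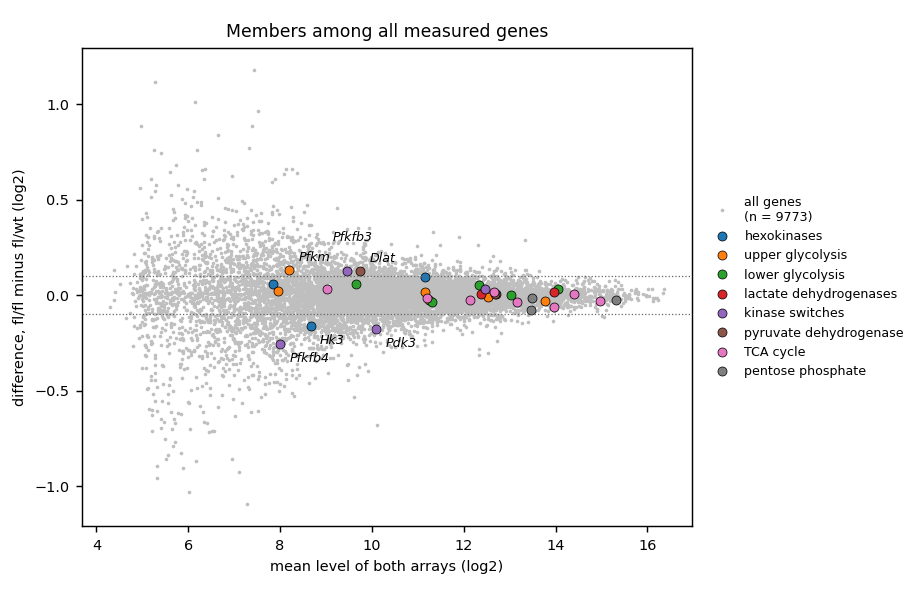
Difference between the arrays (fl/fl minus fl/wt, log2) against the mean level of both (log2) for all 9773 measured genes (grey) and the 34 genes of the set (coloured by pathway step); dotted lines mark 0.1 in either direction. The 6 labelled genes beyond the lines all have a mean level under 11, where the grey cloud is wide.

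Hexokinases trap glucose in the cell as glucose 6-phosphate, and all 3 isoenzymes on the list were measured. Hk1, the widely expressed form, read 11.11 (fl/wt) and 11.20 (fl/fl) and differed by 0.095. Hk2, the form that activated lymphocytes induce, read 7.81 and 7.87, a difference of 0.060. Hk3, a form typical of myeloid cells, went the other way, at 8.74 and 8.58, a difference of -0.16. Its second probe set differed by 0.084 (7.83 and 7.91), so the direction of Hk3 depends on which of its probe sets is read. Markers of macrophages were bright in both arrays: 5 of 7 myeloid markers were measured, with Csf1r at 13.99 in fl/wt and 0.015 higher in fl/fl, Cd68 at 12.67 and 12.62 and Lyz2 at 12.59 and 12.52, while Itgam and Mpo were under log2 5. Their summed level was log2 15.08 in fl/wt and 15.07 in fl/fl. The part of macrophages in the values of Hk3, or of any other gene of the set, was not tested. In such bulk samples fewer cells of a type cannot be told apart from less RNA per cell.

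In upper glycolysis the sugar phosphate is isomerised, phosphorylated a second time and split, and 6 of 7 listed genes were measured. Phosphofructokinase, the committed step, has 3 subunit genes, and all 3 were read. Pfkl, named for liver, read 11.15 and 11.17, a difference of 0.016, and its 3 probe sets all read higher in fl/fl by 0.014 to 0.047. Pfkm, named for muscle, read 8.14 and 8.27, and this 0.13 was the largest positive difference of the set. Pfkp, named for platelets, read 11.26 and 11.24, a difference of -0.022. Subunit by subunit, only Pfkm passed 0.1, and it has a single measured probe set in a level range where 48.7% of genes are at least 0.1 apart. Aldolases split the sugar: Aldoa read 13.78 and 13.75, a difference of -0.028, with its 5 probe sets between -0.088 and 0.017. Aldoc, the form best known from brain, read 7.94 and 7.96, a difference of 0.022. Triose phosphate isomerase, Tpi1, read 12.54 and 12.53, and its 3 probe sets stayed between -0.0083 and 0.0055. The group's median was 0.0037, with 3 genes higher and 3 lower.

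Lower glycolysis yields ATP and pyruvate, and 5 of 7 listed genes were measured. Of these, 4 read higher in fl/fl, as did 47.5% of all measured genes, and the median was 0.032. The kinase Pgk1, which makes ATP, read 14.03 (fl/wt) and 14.07 (fl/fl) and differed by 0.032, while its other probe sets differed by -0.015 and -0.019. The mutase Pgam1 read 12.30 and 12.35, a difference of 0.052. Of the enolases, Eno2, known from neurons, read 9.62 and 9.68 and differed by 0.060. Eno3, known from muscle, read 11.32 and 11.28 and differed by -0.033. All 5 muscle markers examined (Ckm, Myh4, Acta1, Tnnt3 and Mb) were under log2 5 in both arrays. Which cells gave the Eno3 signal was not tested. Pkm, the pyruvate kinase of most tissues, read 13.04 in both arrays, a difference of 0.0019. Gapdh is outside the rule. Its control probe sets for the 3' end, the middle and the 5' end differed by -0.013, -0.050 and -0.035, the first reading 14.92 and 14.91. A probe set annotated to Gapdh and 4 similar sequences read 14.28 and 14.29, a difference of 0.011, and a dimmer shared one differed by 0.070. No gene that could be read in this stretch was 0.1 apart, and the enolase Eno1 could not be read. Several genes of the stretch, Gapdh above all, have many processed pseudogenes whose transcripts such probes could share.

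The lactate dehydrogenases were level between the arrays. Ldha, the subunit that favours lactate formation and a classical Myc and Hif1a target, read 13.95 (fl/wt) and 13.97 (fl/fl) and differed by 0.018. Its promoter, printed above, had more ACGTG matches than the other windows shown. Ldhb, the subunit that favours the reverse reaction, read 12.37 and 12.38, a difference of 0.0086. Its other 3 probe sets differed by 0.027, -0.013 and -0.14, so the direction of Ldhb is not fixed by these data.

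The kinases that set the flux held the widest range of differences of the pathway steps, with genes on both sides of 0. Of 5 listed genes 4 were measured, and 3 of these were at least 0.1 apart (26.8% of all measured genes). All 3 had a mean level under 11. That share is 24.3% between 9 and 11 (Pfkfb3 and Pdk3) and 48.7% between 7 and 9 (Pfkfb4). Pfkfb3 and Pfkfb4 make fructose 2,6-bisphosphate, the activator of phosphofructokinase. Pfkfb3 read 9.39 (fl/wt) and 9.51 (fl/fl) and differed by 0.13. Pfkfb4 read 8.14 and 7.88, a difference of -0.26, or 1.19-fold lower in fl/fl. Pfkfb3 and Pfkfb4 therefore read in opposite directions, each from a single measured probe set. At the level of Pfkfb4, 12.5% of genes were at least 0.25 apart. The pyruvate dehydrogenase kinases Pdk1 and Pdk3 switch off the entry into the TCA cycle by phosphorylating the complex. Pdk3 read 10.18 and 10.01, a difference of -0.18 or 1.13-fold lower in fl/fl, from 1 probe set. Pdk1, induced by Hif1a in low oxygen, read 12.45 and 12.48, a difference of 0.035, with its other 3 probe sets between -0.025 and 0.0041. The group's median of -0.070 rests on 4 values that run from -0.26 to 0.13, and with Pdk2 included at its value under the floor it was 0.022.

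**Figure D3:**
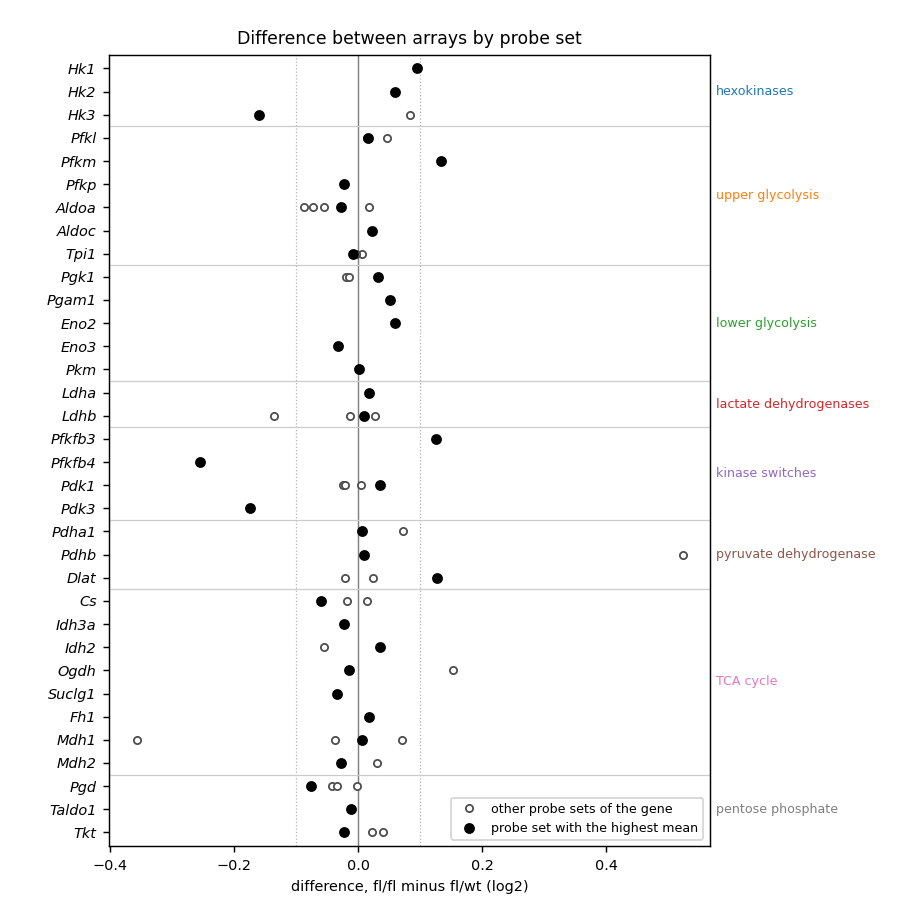
Difference between the arrays (fl/fl minus fl/wt, log2) for every probe set of the 34 genes that reached log2 5 in both arrays; filled circles mark the probe set with the highest mean and open circles the others, with dotted lines at 0.1 in either direction. Pdhb and Mdh1 each have 1 open circle far out, at 0.52 and -0.36, while their brightest probe sets lie at 0.0085 and 0.0058.

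The pyruvate dehydrogenase complex turns pyruvate into acetyl-CoA. Its 3 listed genes all read higher in fl/fl by their brightest probe sets, as did 47.5% of all measured genes. Pdha1, the catalytic alpha subunit and the target of the Pdk kinases, read 12.70 (fl/wt) and 12.71 (fl/fl) and differed by 0.0058, with 0.072 at its second probe set. Pdhb, the beta subunit, read 12.68 and 12.69, a difference of 0.0085. A dimmer Pdhb probe set read 6.26 and 6.78, a difference of 0.52 that the brighter one did not share. Dlat, the acetyltransferase core, read 9.68 and 9.81, a difference of 0.13. Its next probe set, almost as bright at 9.74 and 9.71, differed by -0.022, and the third by 0.024, so the 0.13 belongs to 1 probe set of 3.

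All 8 listed TCA cycle genes were measured, 3 higher and 5 lower in fl/fl, where 52.5% of all measured genes read lower. Their median was -0.019, and none was 0.1 apart. Citrate synthase, Cs, read 13.99 (fl/wt) and 13.93 (fl/fl) and differed by -0.060, the furthest of the 8, with -0.018 and 0.013 at its other probe sets. For the NAD-dependent isocitrate dehydrogenase, Idh3a read 12.16 and 12.13, a difference of -0.023. Idh2, the mitochondrial NADP-dependent form, read 9.01 and 9.05 and differed by 0.035, with -0.056 at its second probe set. The probe sets of Cs and of Idh2 thus lie on both sides of 0, and Idh3a had only 1 measured. Ogdh, of the 2-oxoglutarate dehydrogenase complex, read 11.21 and 11.20, a difference of -0.014, while its dimmer probe set differed by 0.15. Suclg1, a subunit of succinyl-CoA ligase, read 13.18 and 13.15, a difference of -0.034. Fumarase, Fh1, read 12.65 and 12.67, a difference of 0.018. The malate dehydrogenases close the cycle (Mdh2) and shuttle reducing power from the cytosol (Mdh1). Mdh1 read 14.41 in both arrays and differed by 0.0058, with other probe sets at 0.071, -0.038 and, for the dimmest, -0.36. Mdh2 read 14.98 and 14.95, a difference of -0.029, with 0.031 at its second probe set.

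The pentose phosphate enzymes were the only pathway step in which all measured genes, 3 of 3, read lower in fl/fl, by small amounts. Pgd, which makes NADPH in the oxidative branch, read 13.49 (fl/wt) and 13.42 (fl/fl) and differed by -0.076. All 4 of its probe sets read lower in fl/fl, by -0.076 to -0.0024. Taldo1, a transaldolase of the non-oxidative branch, read 13.49 and 13.48, a difference of -0.012. Tkt, the transketolase of that branch, read 15.34 and 15.31, a difference of -0.023, but its other probe sets differed by 0.040 and 0.023. The median was -0.023, none was 0.1 apart, and 52.5% of all measured genes read lower in fl/fl.

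Probe sets of the same gene seldom agreed in direction. Of the 34 genes, 17 had at least 2 probe sets that reached log2 5 in each array, and in 4 of these (Pfkl, Pdha1, Pdhb and Pgd) all pointed the same way. That is 23.5%, against 38.7% of the 4227 such genes over the whole array; a gene with more probe sets has more chances to disagree, and this was not adjusted for. The pooled SD of differences between probe sets of 1 gene was 0.10 for the set and 0.14 over all genes. For 17 genes the direction rests on 1 measured probe set, among them Pfkfb4, Pdk3, Pfkm and Pfkfb3, 4 of the 6 genes at least 0.1 apart. The other 2, Hk3 and Dlat, had a second probe set of opposite sign. Probe sets share the same RNA sample and are not replicates of a genotype.

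Further genes of the same pathways and their regulators, 75 genes in 6 lists, were also read. Of these, 52 were measured, 19 higher and 33 lower in fl/fl, where 52.5% of all measured genes read lower. Their median was -0.023, against -0.0045 over all measured genes. At least 0.1 apart were 9 (26.8% of all measured genes), and none was 0.25 apart. Of the other glycolytic genes 6 of 16 were measured, 1 higher and 5 lower, and Pgm2, a phosphoglucomutase, was furthest apart at -0.17. The forms of other tissues, such as the liver and red cell pyruvate kinase Pklr and the testis forms Pgk2, Ldhc and Gapdhs, were under log2 5 in both arrays. Genes of pyruvate handling and transport gave 3 higher and 4 lower; the glucose carriers Slc2a1 (-0.037) and Slc2a3 (0.0060) and the lactate carrier Slc16a1 (-0.078) were each under 0.1. In that list Dld, the subunit shared by the pyruvate and 2-oxoglutarate dehydrogenases, read 9.64 and 9.77, a difference of 0.13. Other TCA genes gave 4 higher and 8 lower, from -0.058 (Suclg2) to 0.078 (Dlst). Other pentose phosphate genes gave 4 higher and 3 lower with a median of 0.0014, so the direction of the 3 listed enzymes was not that of the wider list. Other flux switches gave 2 higher and 2 lower, and Pdk4 and Pfkfb2 were under log2 5.

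Of the 16 regulators, all measured, 5 read higher and 11 lower in fl/fl, where 52.5% of all measured genes read lower. Their median was -0.059, and 5 were at least 0.1 apart (26.8% of all measured genes). Hif1a, the oxygen-sensitive factor that drives glycolytic genes, read 12.85 (fl/wt) and 12.88 (fl/fl) and differed by 0.026. Myc read 11.01 and 10.94, a difference of -0.066. Egln3, a prolyl hydroxylase that Hif1a itself induces, was the furthest apart at -0.16 (8.57 and 8.42). Hif1a and Egln3 each had 2 measured probe sets, and only the brighter is given here. The nutrient kinase Mtor differed by 0.041 and its partner Rptor by 0.11. The values of Egln3 and Rptor come from levels where 48.7% of all genes are 0.1 apart. Epas1, a relative of Hif1a, differed by -0.11, and Max, the partner of Myc, also by -0.11, at levels where that share is 24.3%. Mlx, which pairs with the glucose-sensing factor Mlxip, read 11.08 and 10.98 and differed by -0.11, with a mean level of 11 or more, where 7.52% of genes are 0.1 apart. Each of these 3 was read by a single measured probe set.

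**Figure D4:**
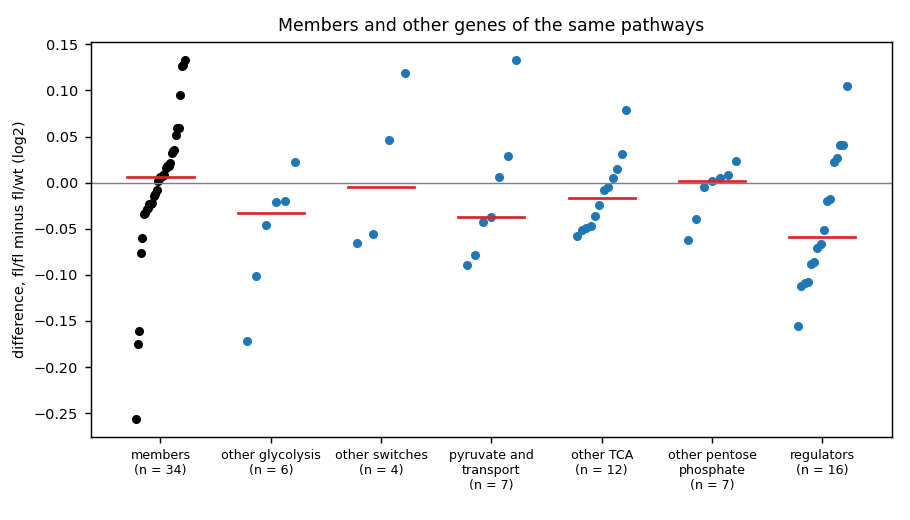
Difference between the arrays (fl/fl minus fl/wt, log2) for the 34 measured genes of the set (black) and the 52 measured genes of the 6 further lists (blue), sorted within each list; the red bar is the list's median. The medians run from -0.059 (regulators) to 0.0058 (the set), and no blue point passes 0.25 in either direction.

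As to the samples, Treg and T cell markers were present in both arrays. Of 8 Treg markers 6 were measured, 2 higher and 4 lower in fl/fl, with a median of -0.015. They ran from -0.10 (Il2ra, 13.45 and 13.35) to 0.096 (Ikzf4, 12.08 and 12.17), and Ctla4 read 14.91 and 14.87. Foxp3 itself did not reach log2 5. Of 7 T cell markers 6 were measured, 3 higher and 3 lower, from -0.061 (Cd4) to 0.088 (Cd3e, 13.32 and 13.40). Of the 4 Stat3 probe sets 3 were measured, and they differed by -0.083 to -0.0083; their position relative to the floxed part of the gene is unknown here, so they do not check the labels. Among the 7 B cell markers listed 5 were measured, with a summed level of log2 11.08 and 10.99. Of these 5, 4 read lower in fl/fl, with a median of -0.13: Ms4a1 differed by -0.34, Blk by -0.17, Cd22 by -0.13 and Cd79b by -0.079, while Cd79a differed by 0.16. Among the 5 CD8 and NK markers 3 were measured, with a summed level of 9.56 and 9.69; Cd8b1 differed by 0.27, while Cd8a (-0.028) and Klrd1 (-0.010) read lower. Of 6 red cell markers 4 had a probe set, and Hba-a1 and Slc4a1 were under log2 5 in both arrays. The 2 measured, Alas2 (6.26 and 5.97) and Epor (7.38 and 6.52), were dim and differed by -0.28 and -0.86. Their summed level was 7.92 and 7.27. The part of these cells, and of the macrophages whose markers were bright in both arrays, in the values above was not tested.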

How the data were processed

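RNA of sorted Treg was hybridised to Affymetrix arrays, 1 per Stat3 genotype, per the labels' protocols. For each of 45101 probe sets the authors deposited a log2 value, made with GCRMA per the submitters' processing notes. The version and settings of GCRMA, and whether it saw more arrays, are not stated there. The log2 scale was read from the values (0.53 to 16.9). GCRMA pulls dim probe sets to a low end without order, so a gene was kept if either array read log2 5 or more, and lower values were set to 5. Depth does not apply to arrays; their number, 2, limits the precision. Symbols come from the platform annotation (34958 probe sets with 1 symbol, 932 with several, 9211 with none; 64 are controls, some with a symbol), and all 35 genes of the set with a probe set kept their symbol in RefSeq (GRCm38.p6). No build is named for the values.

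Differences are fl/fl minus fl/wt. With 1 array per genotype no test was run. Every listed gene is reported; of the further lists, genes past 0.25, Hif1a and Myc were to be named by rule, and the others named there were chosen after their values were seen. The genes and lists were chosen with earlier results of these data known. Protein comparison of isoenzymes was planned and not run. Procedures were tested on simulated data. The simulated shifts were larger than any difference of the set, so recovery of smaller ones was not tested. Python 3.11.15, pandas 2.3.3 and statsmodels 0.14.6 were used.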

Additional observations from a re-analysis of the deposited data

How the results depend on the processing

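The values were recomputed in 9 other ways: floors of log2 4 and 6, no filter or floor, 32 added on the linear scale, the median over probe sets, no shared-suffix probe sets, and centring, quantile and loess scaling. The median of the set ran from -0.00072 (median over probe sets) to 0.016 (centring), the count at least 0.1 apart from 5 to 7, and the count past 1.5-fold was 0 in each. Leaving out shared-suffix probe sets left 21 genes, 12 higher and 9 lower, because fewer genes are read. The median of the flux switches was 0.022 with no filter or floor and 0.0033 with 32 added, because Pdk2 then enters at its low value. The other step medians moved by less than the probe set SD of a gene (0.14) divided by the root of the number of genes, though the pentose phosphate median became 0.040 without shared-suffix probe sets, where only Tkt is left. Of 293 single-gene values 2 moved by more than that SD, Hk3 to 0.084 without shared-suffix probe sets and Pdhb to 0.27 as the median over probe sets. Both margins are larger than most of the values they judge, so a small difference could change sign and still stay within them. Over these ways 23 of the 34 genes kept the sign of their difference and 11 did not (Hk3, Tpi1, Pgk1, Ldhb, Pdk1, Cs, Idh2, Ogdh, Mdh1, Mdh2 and Tkt). All 11 were among the 17 genes with at least 2 measured probe sets. For the 17 genes with 1, the median over probe sets and the suffix rule could only repeat the value or drop the gene. The changed floors left every measured gene's value as it was, so a kept sign is weak evidence of stability. No scaling moved the median of all genes by 0.1. No paired analysis was possible because each genotype had 1 array. The signal over background limits what can be said of Pdk2, and 1 array per genotype limits every difference.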
